A study of Mus musculus with 6 samples.

Results

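The genes described here encode 8 membrane-anchored ADAM proteins, Adam9, Adam10, Adam12, Adam15, Adam17, Adam19, Adam22 and Adam33, out of 41388 genes counted in the series. They were chosen by name, through the Ensembl identifier of each symbol, and all 8 had counts and passed the filter on low values (above 1 CPM, the count scaled to the depth of its sample, in 3 or more samples), which left 12192 genes for testing. Adam9, Adam10, Adam15 and Adam17 are grouped as ubiquitous members because most tissues express them. Adam12, Adam19 and Adam33 are grouped as mesenchymal members, and Adam22, which has no protease activity, was kept apart from both classes.

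RNA-seq was done on tumor-initiating cells (TICs) and on the remaining tumor cells of MMTV-PyMT mice, to ask how the transcriptomes of the 2 populations differ. There were 3 samples of each, every one of them a pool from 4 cell sorts prepared from 120 ng of RNA. Both populations came from mammary tumors of female mice of the strain FVB/N-TgN(MMTVPyVT)634Mul/J, 12 weeks old. These mice carry the polyoma middle T oncogene behind the mouse mammary tumor virus promoter, which drives it in mammary epithelium. TICs were sorted as CD24+CD90+ cells without CD45, the common leukocyte antigen. The comparison group, called non-CD24+CD90+ tumor cells and below the other tumor cells, also lacked CD45 and was everything outside the CD24+CD90+ gate; the series description names it as negative for both markers. No treatment is named for either group, and neither was sorted against fibroblasts, pericytes or endothelial cells.

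ADAM proteins are transmembrane metalloproteases that cut the ectodomains off other membrane proteins, a process called shedding. They are made as inactive precursors, and proprotein convertases such as furin remove the prodomain on the way to the cell surface. ADAM10 is the main sheddase of Notch receptors and of E-cadherin, and ADAM17 releases TNF and several ligands of the EGF receptor. ADAM12, ADAM19 and ADAM33 are expressed in muscle, bone, lung and tumor stroma, and ADAM12 is known as a gene of activated fibroblasts and of breast carcinoma.

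Catalysis in this family depends on a zinc ion held by 3 histidines, with a glutamate beside the leading histidine. The codons of this site are shown because they separate Adam22 from the other 7 members. They were read 5′ to 3′ from the coding strand of 1 GENCODE M21 transcript per gene on GRCm38. The codons of the histidines and of the glutamate are in capitals, and for Adam22 the codons at the aligned positions.
Adam9: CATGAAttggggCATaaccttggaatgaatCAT
Adam10: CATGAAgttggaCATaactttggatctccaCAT
Adam15: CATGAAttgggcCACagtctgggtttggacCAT
Adam17: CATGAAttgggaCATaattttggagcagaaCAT
Adam12: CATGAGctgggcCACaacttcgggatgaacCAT
Adam19: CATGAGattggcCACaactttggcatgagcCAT
Adam33: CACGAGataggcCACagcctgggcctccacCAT
Adam22: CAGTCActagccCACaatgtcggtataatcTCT

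The 7 catalytic members each held this site exactly 1 time in their coding sequence. In Adam22 it was absent, and at the aligned position 1 of the 3 histidine codons was left and the glutamate codon was missing. The site lies in exon 11 of 22 in Adam9 (minus strand, chr8:24990326-24990358), in exon 11 of 23 in Adam15 (minus strand, chr3:89344780-89344812) and in exon 12 of 20 in Adam17 (minus strand, chr12:21336732-21336764). In Adam10 it spans the junction of exons 9 and 10 of 16 (plus strand, chr9:70754296-70761585, with the intron between them). In the mesenchymal members it lies in exon 11 of 23 in Adam12 (minus strand, chr7:133961158-133961190), in exon 11 of 23 in Adam19 (plus strand, chr11:46125050-46125082) and in exon 11 of 21 in Adam33 (minus strand, chr2:131055130-131055162). The Adam22 position lies in exon 13 of 30 (minus strand, chr5:8143064-8143096).

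Over the whole translated protein the mesenchymal members were the most alike, which was not so for the codons of the active site. There Adam12 and Adam19 shared 28 of 33 bases, but Adam10 and Adam17 shared 26 and Adam12 and Adam33 shared 23. In the proteins Adam12 and Adam19 shared 47.5% of aligned residues, Adam19 and Adam33 45.62%, and Adam12 and Adam33 44.19%, which were the 3 highest values among the 28 pairs of members. Within the ubiquitous class identity ran from 27.57% to 35.99%. Adam10 and Adam17 shared 31.62% with each other and between 25.38% and 30.35% with the other members. The ubiquitous class is therefore a grouping by expression and not by sequence.

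Total counts ran from 6781239 to 8450038 in the other tumor cells (median 6990094) and from 8114933 to 9100552 in TICs (median 8639817), so that 3 counts corresponded to between 0.33 and 0.442 CPM. Of the genes that the other samples of a group predicted at 20 to 60 counts, 19.7% to 25.1% had no count in a given sample of the other tumor cells and 27.5% to 37.7% in a TIC sample. TIC replicate 3 stood apart on the main principal component of all tested genes, at 165 against −56.9 to −5.51 for the other 5 samples. Replicate numbers follow the order of the sample records and pair nothing between groups. Per the study's description the pools of a group came from different mice. The study's legend on RNA quality gives a total number of mice without making clear whether it covers both groups. Whether a TIC pool and a pool of the other group shared mice is thus not settled by the sources used here. With 3 samples against 3, an exact permutation test cannot give a p-value below 0.1. Luminal epithelial genes such as Krt8, Krt18 and Epcam were present in all samples, and the T cell gene Cd3e had no count in any.

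Among the 8 members, Adam12 was the only gene called between the groups, and it was higher in TICs. Of the other mesenchymal members, Adam33 was higher in every TIC sample without passing the test, and the samples of Adam19 overlapped. None of the ubiquitous members and not Adam22 passed. The 1 member called higher stands beside 1.36% of all 12192 genes called higher, and the 0 members called lower beside 0.189% called lower (edgeR's exactTest, Benjamini-Hochberg adjusted p below 0.1). At an unadjusted p below 0.05 there were 2 members, Adam12 and Adam33, both higher in TICs, beside 7.85% of all genes in either direction, and without TIC replicate 2 Adam12 alone was left. In those 2 genes all TIC samples were above all other samples, which held for 7.69% of all genes tested. In 0 members were all TIC samples below, against 7.55% of all genes. The log2 fold change was positive in 5 members and negative in 3, with a median of 0.76, beside a median of −0.01 and 49.7% positive values over all genes.

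Adam12 (ENSMUSG00000054555, chromosome 7 of GRCm38, 133883199 to 134232146, minus strand) encodes meltrin alpha, which sheds heparin-binding EGF and cleaves IGF binding proteins. Its counts were 85, 171 and 268 in the other tumor cells and 798, 429 and 700 in TICs, replicates 1 to 3. Normalized to CPM, these were 12.4, 19.4 and 38.3 against 87.7, 50.0 and 92.4. The lowest TIC sample, replicate 2, was thus above the highest sample of the other group, replicate 3, and the groups did not overlap (exact permutation test, two-sided, p = 0.1). The mean was 76.7 ± 23.2 CPM in TICs and 23.4 ± 13.4 CPM in the other tumor cells (SD, n = 3). This was a 3.28-fold difference with a 95% interval from 1.63 to 6.61. The log2 fold change was 1.71 (SE 0.52; adjusted p = 0.0922 by exactTest of edgeR).

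The call of Adam12 lay close to the threshold of 0.1. It was lost with edgeR's quasi-likelihood test (adjusted p = 0.267), with library size in place of TMM factors (0.134) and without a filter on low counts (0.17), and it was kept in the 3 other settings that used all samples. Its log2 fold change stayed between 1.64 and 1.75 in these 6 settings. Leaving out replicate 1 or 2 of the other tumor cells raised the adjusted p to 0.463 and 0.454, and leaving out TIC replicate 1 or 3 raised it to 0.208 and 0.289. Without replicate 3 of the other tumor cells or TIC replicate 2 the gene was called. Over these fits the log2 fold change ran from 1.42 to 2.27. Adam12 also belongs to the genes that the study selected on these samples, so that its call is not independent evidence of its direction.

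**Figure D1:**
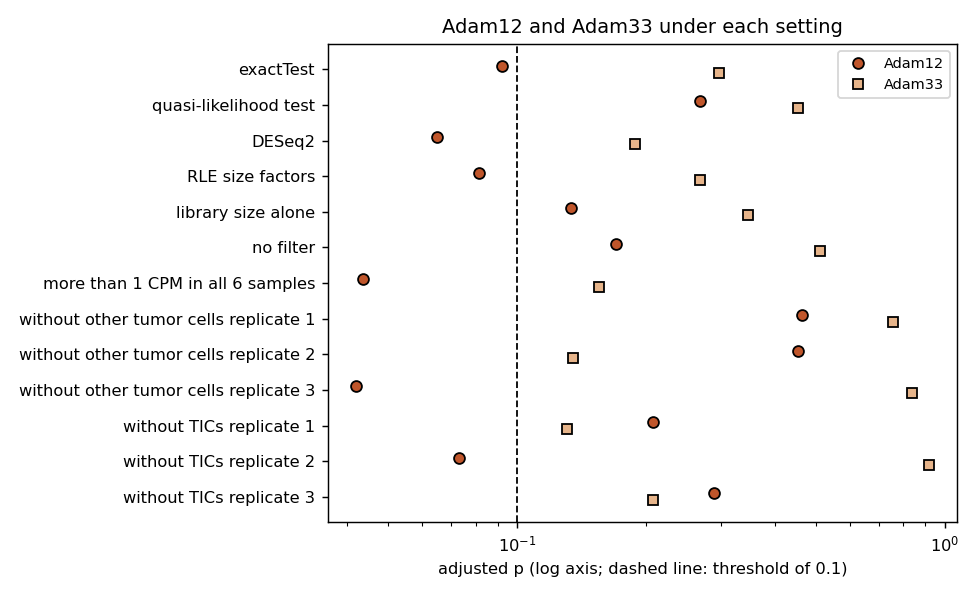
Adjusted p (log axis) of Adam12 (circles) and Adam33 (squares) in edgeR's exactTest and in each alternative setting, with the threshold of 0.1 as a dashed line. Adam12 falls on either side of the line, from 0.0421 to 0.463, and Adam33 lies to the right of it in every setting, from 0.131 to 0.917.

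Adam33 (ENSMUSG00000027318, chromosome 2, 131050591 to 131063814, minus strand) is best known as an airway gene expressed in mesenchymal cells of the lung. It had 84, 246 and 28 counts in the other tumor cells and 287, 855 and 275 counts in TICs. In CPM these were 12.3, 27.9 and 4.01 against 31.5, 99.7 and 36.3. All TIC samples were above all others, by a small margin between TIC replicate 1 and replicate 2 of the other group, while TIC replicate 2 was far above the rest (exact permutation test, two-sided, p = 0.1). The mean was 55.8 ± 38.0 CPM against 14.7 ± 12.1 CPM (SD, n = 3), a 3.78-fold difference with a 95% interval from 1.45 to 9.84. Its log2 fold change of 1.92 (SE 0.70) did not pass the adjustment over all genes (unadjusted p = 0.00929, adjusted p = 0.297 by exactTest of edgeR). It was 1.20 without TIC replicate 2 and 2.78 without replicate 2 of the other tumor cells.

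Adam19 (ENSMUSG00000011256, chromosome 11, 46055992 to 46147343, plus strand) encodes meltrin beta, a sheddase of neuregulin needed for heart development. Its counts were 27, 59 and 202 in the other tumor cells and 111, 399 and 245 in TICs, or 3.94, 6.69 and 28.9 CPM against 12.2, 46.5 and 32.3 CPM. Replicate 3 of the other tumor cells was above TIC replicate 1, so that the groups overlapped. The mean was 30.3 ± 17.2 CPM in TICs and 13.2 ± 13.7 CPM in the other tumor cells (SD, n = 3). The log2 fold change was 1.20 (SE 0.86; 95% interval −0.48 to 2.88; adjusted p = 0.935 by exactTest of edgeR). It was 0.76 without TIC replicate 2 and 2.51 without replicate 3 of the other tumor cells, where Adam19 had an unadjusted p below 0.05. The 3 mesenchymal genes did not order the samples alike. Within TICs Adam12 was lowest in replicate 2, the sample in which Adam19 and Adam33 were highest, and within the other group replicate 3 was highest for Adam12 and Adam19 and lowest for Adam33.

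**Figure D2:**
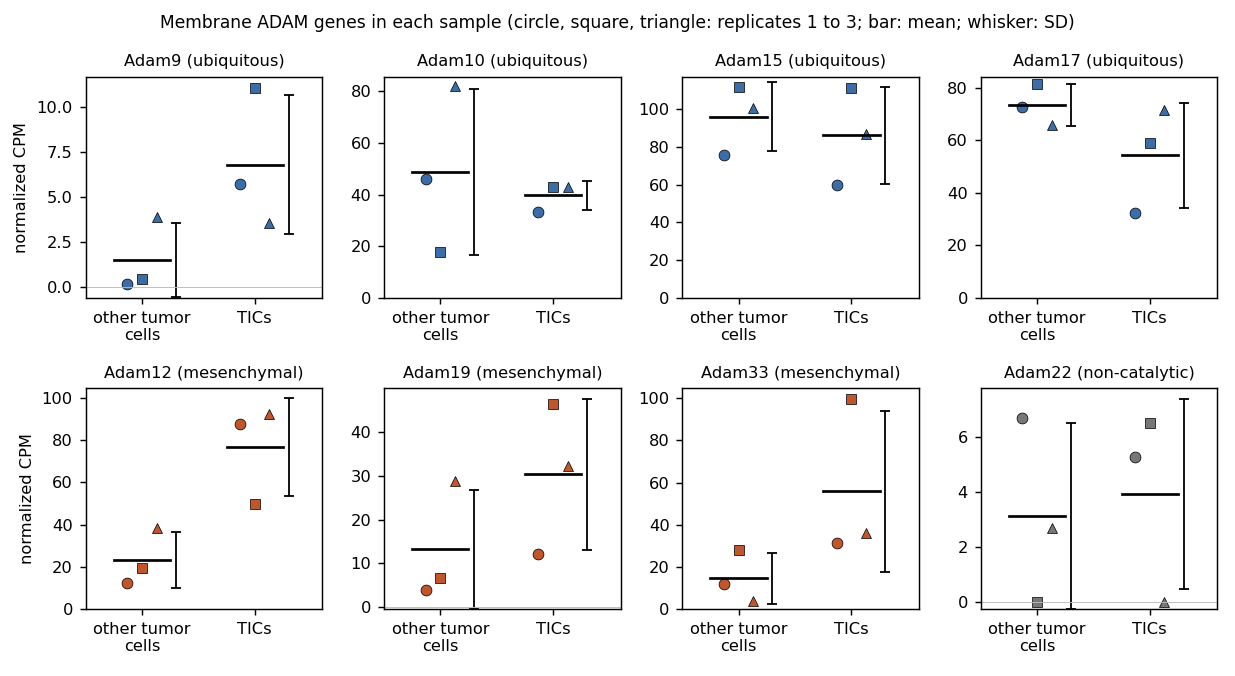
Normalized CPM (linear axis, own scale for each gene) of the 8 membrane ADAM genes in non-CD24+CD90+ tumor cells and in TICs, 3 samples each, with the mean as a bar and the SD as a whisker. The groups are apart for Adam12 (12.4 to 38.3 against 50.0 to 92.4) and Adam33 (4.01 to 27.9 against 31.5 to 99.7) and overlap for the other 6 genes.

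Of the ubiquitous members, Adam10, Adam15 and Adam17 were well covered and showed no difference past the test. Adam10 (ENSMUSG00000054693, chromosome 9, 70678997 to 70780229, plus strand) had 316, 158 and 575 counts in the other tumor cells and 303, 370 and 325 counts in TICs. In CPM the other tumor cells stood at 46.1, 17.9 and 82.2 and the TICs at 33.3, 43.1 and 42.9. All TIC values lay inside the range of the other group, whose replicates 2 and 3 were the lowest and the highest of all 6. The mean was 39.8 ± 5.61 CPM against 48.8 ± 32.2 CPM (SD, n = 3), with a log2 fold change of −0.29 (SE 0.56; 95% interval −1.38 to 0.80; adjusted p = 1 by exactTest of edgeR). Without replicate 3 of the other tumor cells the sign turned, with a log2 fold change of 0.32.

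Adam17 (ENSMUSG00000052593, chromosome 12, 21323509 to 21373632, minus strand), the TNF-alpha converting enzyme, had 499, 719 and 461 counts in the other tumor cells and 293, 505 and 543 counts in TICs. These were 72.8, 81.6 and 65.9 CPM against 32.2, 58.9 and 71.6 CPM. TIC replicates 1 and 2 were below all other samples and TIC replicate 3 was within their range. The mean was 54.2 ± 20.1 CPM in TICs and 73.4 ± 7.84 CPM in the other tumor cells (SD, n = 3), with a log2 fold change of −0.44 (SE 0.42; 95% interval −1.27 to 0.39; adjusted p = 0.999 by exactTest of edgeR). An increase of the size seen in Adam12 lies outside this interval.

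Adam15 (ENSMUSG00000028041, chromosome 3, 89338542 to 89349996, minus strand), also called metargidin, had 520, 983 and 701 counts in the other tumor cells and 546, 953 and 659 counts in TICs. These were 75.9, 111.5 and 100.3 CPM against 60.01, 111.1 and 87.0 CPM. The groups covered nearly the same range. The mean was 86.0 ± 25.6 CPM against 95.9 ± 18.2 CPM (SD, n = 3), with a log2 fold change of −0.16 (SE 0.37; 95% interval −0.88 to 0.56; adjusted p = 1 by exactTest of edgeR). Its sign also rested on 1 sample, since the log2 fold change was 0.06 without TIC replicate 1.

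Adam9 (ENSMUSG00000031555, chromosome 8, 24949611 to 25016927, minus strand) encodes meltrin gamma, a sheddase found in many epithelia, and it was scarce in both groups. It had 1, 4 and 27 counts in the other tumor cells and 52, 95 and 27 counts in TICs. In CPM these were 0.146, 0.454 and 3.86 against 5.72, 11.1 and 3.56. TIC replicates 1 and 2 were above all other samples, and TIC replicate 3 was slightly below replicate 3 of the other group. The mean was 6.78 ± 3.87 CPM against 1.49 ± 2.06 CPM (SD, n = 3). Its log2 fold change of 2.18 exceeded that of every other member, but with a standard error of 1.63 the 95% interval ran from −1.01 to 5.38 (adjusted p = 0.983 by exactTest of edgeR). Without replicate 3 of the other tumor cells it was 4.42, and without TIC replicate 2 it was 1.64.

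Adam22 (ENSMUSG00000040537, chromosome 5, 8072352 to 8368160, minus strand) encodes a neuronal receptor for the secreted LGI proteins. It had 46, 0 and 19 counts in the other tumor cells and 48, 56 and 0 counts in TICs, or 6.71, 0 and 2.72 CPM against 5.28, 6.53 and 0 CPM. Both groups thus held a sample without a count. In replicate 2 of the other tumor cells 0 counts allow up to 0.355 CPM and in TIC replicate 3 up to 0.37 CPM, by counting error alone. These 2 limits were scaled by total count, without TMM factors. The mean was 3.93 ± 3.46 CPM against 3.14 ± 3.38 CPM (SD, n = 3), and a difference was not detectable with these counts (log2 fold change 0.32, 95% interval −3.64 to 4.29, adjusted p = 1 by exactTest of edgeR).

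**Figure D3:**
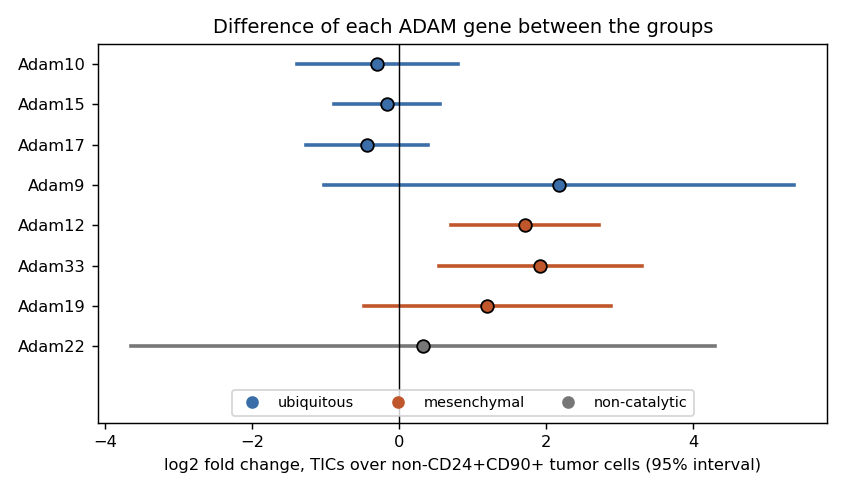
Log2 fold change of each ADAM gene, TICs over non-CD24+CD90+ tumor cells, with its 95% interval, coloured by class. The intervals of Adam12 (0.70 to 2.72) and Adam33 (0.54 to 3.30) lie above 0, and those of the other 6 genes include it.

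Some exons are shared with genes on the opposite strand, and whether the authors' counting used strand is not given in the sources used here. Adam17 shares 311 bases of exon with Iah1, which had 21 to 110 counts per sample. Adam15 shares 1263 bases with 4731419I09Rik, and Adam19 shares 587 bases with Gm16033 and 480 with Gm16034; these 3 genes were at 0 counts throughout. The exons of Adam9, Adam10, Adam12, Adam22 and Adam33 overlap no other annotated gene.

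Levels were compared between members only per length, as normalized CPM per kilobase of merged GENCODE M21 exons. In the other tumor cells the order was Adam15 (15.6 ± 2.97 CPM per kb), Adam17 (10.3 ± 1.096), Adam10 (9.93 ± 6.56), Adam33 (2.73 ± 2.25), Adam12 (2.21 ± 1.27), Adam19 (1.85 ± 1.92), Adam9 (0.361 ± 0.501) and Adam22 (0.219 ± 0.235; mean ± SD, n = 3). In that group the samples of Adam15 lay above those of Adam17 without overlap, and every other pair of neighbours in the order overlapped. In TICs Adam15 again led, at 14.0 ± 4.16 CPM per kb, followed by Adam33 (10.4 ± 7.05), Adam10 (8.10 ± 1.14), Adam17 (7.58 ± 2.81), Adam12 (7.25 ± 2.20), Adam19 (4.27 ± 2.42), Adam9 (1.65 ± 0.94) and Adam22 (0.274 ± 0.241). Only the last neighbours, Adam9 and Adam22, did not overlap in TICs. Adam12 was in 5th place in both groups, and Adam33 was in 4th place in the other tumor cells and in 2nd place in TICs, where its mean rested on 18.5 CPM per kb in replicate 2 beside 5.85 and 6.73 in replicates 1 and 3.

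The ubiquitous and the mesenchymal class differed in how they compared between the populations. The summed level of Adam9, Adam10, Adam15 and Adam17 was 32.0, 33.3 and 43.2 CPM per kb in the other tumor cells and 22.4, 37.8 and 33.8 in TICs, with overlapping groups. The summed level of Adam12, Adam19 and Adam33 was 3.9996, 7.95 and 8.43 against 15.9, 29.7 and 20.01 CPM per kb. All TIC samples were above all others in this sum, at 21.9 ± 7.13 against 6.79 ± 2.43 (SD, n = 3). No test was made of it because the members were chosen with results of these data known.

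Within each sample the mesenchymal genes held 11.1%, 19.3% and 16.3% of the summed level of the 7 catalytic members in the other tumor cells. In TICs they held 41.4%, 44.1% and 37.2%. This share is a ratio inside a sample, so that it does not depend on the normalization between samples. The ubiquitous sum exceeded the mesenchymal sum by 7.99, 4.19 and 5.13 times in the other tumor cells. In TICs it did so by 1.41, 1.27 and 1.69 times. The sum of 3 mesenchymal genes thus stayed below the sum of 4 ubiquitous genes in every sample, which does not hold for single genes. In TIC replicate 2 Adam33 stood at 18.5 CPM per kb and Adam15, the highest ubiquitous gene, at 18.1.

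**Figure D4:**
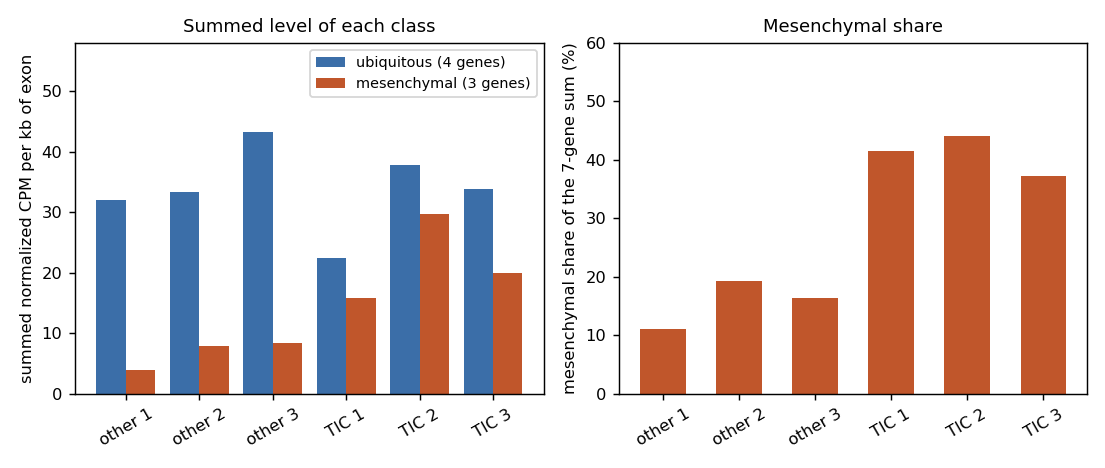
Left, summed normalized CPM per kb of the 4 ubiquitous and the 3 mesenchymal ADAM genes in each sample; right, the mesenchymal share (%) of the sum of all 7 (other, non-CD24+CD90+ tumor cells). The mesenchymal share is 11.1% to 19.3% in non-CD24+CD90+ tumor cells and 37.2% to 44.1% in TICs, while the ubiquitous sums overlap.

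On the log2 scale the mean fold change was 1.61 over the 3 mesenchymal genes and 0.32 over the 4 ubiquitous genes, a difference of 1.29. The ubiquitous mean was set by the scarce Adam9; its median was −0.23, and without Adam9 the mean was −0.30 and the class difference 1.91. Without Adam12 in the mesenchymal class the difference was 1.24. Leaving out 1 sample at a time moved it between 1.06 and 1.59.

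The summed markers of stromal cell types were higher in every TIC sample, as was the mesenchymal sum. The summed level of 8 fibroblast genes was 1014 to 1091 CPM in the other tumor cells and 1800 to 3194 CPM in TICs. Of the 8 genes 4 were called higher (Dcn, Dpt, Col6a3 and Mfap5), and 7 of 8 were higher in every TIC sample. Here and for the lists that follow, 1.36% of all genes tested were called higher and 7.69% were higher in every TIC sample. The sum of 7 pericyte and smooth muscle genes was 363 to 420 CPM against 717 to 1202 CPM. Of these 7 genes 1 was called higher (Rgs5) and 3 were higher in every TIC sample. Rgs5 alone made up 243 CPM of the sum in each sample of the other tumor cells and 528 to 800 CPM in TICs. The sum of 6 endothelial genes was 118 to 134 CPM against 165 to 508 CPM, with 0 of 6 called by exactTest and 1 of 6 higher in every TIC sample. The sum of 8 luminal epithelial genes went the other way, from 5858 to 6128 CPM against 3824 to 4486 CPM. Of these, 0 of 8 were called by exactTest and 8 of 8 had log2 fold changes below 0. In 4 of the 8 every TIC sample was lower, beside 7.55% of all genes tested. The sum of 7 leukocyte genes overlapped, at 16.7 to 35.6 CPM against 32.1 to 90.1 CPM. Lyz2, called higher, made up 62.0, 75.3 and 28.0 of the 90.1, 81.1 and 32.1 CPM in TIC replicates 1 to 3. The other 2 tested, Csf1r and Cd68, had log2 fold changes of −1.68 and −0.31 and were not called. Ptprc, the gene of CD45, was counted in 1 sample of the other tumor cells alone. The sum of 4 basal epithelial genes overlapped between the groups (449 to 983 CPM against 356 to 583 CPM), and of 4 adipocyte genes Adipoq, Plin1 and Lep had no count in any sample. The part of these cell types in the ADAM values was not tested. From higher Zeb1, Twist1, vimentin and collagens and from enriched gene sets in the same TIC samples, the study reads an epithelial-to-mesenchymal transition of the TICs. It also describes TICs in culture that all stained strongly for E-cadherin while some formed protrusions, and reads an intermediate state of the transition from them. Whether tumor cells or stromal cells expressed the markers summed here was not tested either. In bulk samples fewer cells of a type and less RNA per cell cannot be told apart.

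Set against the stromal markers of the same sample, the mesenchymal sum, Adam12 and Adam33 overlapped between the groups, as Adam19 did with or without this division. Per 1000 CPM of fibroblast markers, the mesenchymal sum was 3.95, 7.29 and 8.20 CPM per kb in the other tumor cells and 8.81, 9.99 and 6.26 in TICs. For Adam12 the same ratio was 12.2, 17.8 and 37.3 CPM against 48.7, 16.8 and 28.9 CPM. For Adam33 it was 12.1, 25.6 and 3.89 CPM against 17.5, 33.5 and 11.4 CPM. The groups overlapped in each of these ratios, and the means stayed higher in TICs. They were 8.35 against 6.48 CPM per kb for the mesenchymal sum. For Adam12 they were 31.5 against 22.4 CPM and for Adam33 20.8 against 13.9 CPM. The ratio of Adam19 was 3.89, 6.14 and 28.1 CPM against 6.78, 15.6 and 10.1 CPM, with the higher mean in the other tumor cells. Dcn made up 40.7% to 62.1% of the fibroblast sum. Without it, a choice made after seeing the data, the mesenchymal ratio was 9.15, 13.5 and 15.2 against 14.8, 21.9 and 16.5 CPM per kb, which overlapped too. This overlap came from TIC replicate 1 alone, and the mean was higher in TICs, at 17.7 against 12.6 CPM per kb. Per 1000 CPM of pericyte and smooth muscle markers the mesenchymal sum was 11.025, 21.5 and 20.1 CPM per kb against 22.1, 31.7 and 16.6, which also overlapped. Per 1000 CPM of endothelial markers it was 30.6, 67.5 and 62.8 CPM per kb against 96.3, 120.9 and 39.4, again with overlap. With both lists the mean was higher in TICs, at 23.5 against 17.5 and at 85.5 against 53.6 CPM per kb. The ubiquitous sum per 1000 CPM of luminal markers was 5.25, 5.44 and 7.38 CPM per kb in the other tumor cells and 5.001, 9.28 and 8.83 in TICs. These ratios overlapped, with the higher mean in TICs, at 7.70 against 6.02 CPM per kb.

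**Figure D5:**
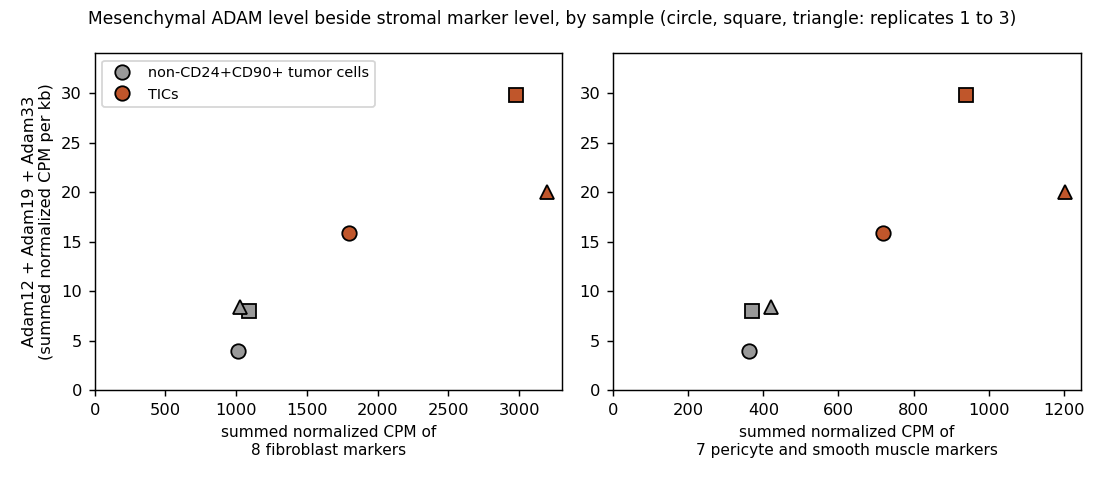
Summed normalized CPM per kb of Adam12, Adam19 and Adam33 in each sample against the summed normalized CPM of 8 fibroblast markers (left) and of 7 pericyte and smooth muscle markers (right). The 3 TIC samples lie to the right of and above the 3 other samples in both panels, with mesenchymal sums of 15.9 to 29.7 against 3.9996 to 8.43.

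The genes that regulate ADAM proteins, a set of their known substrates and 26 other ADAM genes were followed as lists of 99 genes in all; 60 of them were tested, and 27, of which 20 were other ADAM genes, were at 0 counts in every sample. Of these 60 genes 1 was called higher and 0 were called lower by exactTest, beside 1.36% and 0.189% of all genes, and 11 had an unadjusted p below 0.05, beside 7.85% of all genes. Their log2 fold change was positive in 37 and negative in 23, with a median of 0.25. In 7 of them every TIC sample was above and in 6 below all other samples, beside 7.69% and 7.55% of all genes. Beside the genes named by rule, those of these 13 genes that are named below were chosen after their values were seen.

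Partners that carry the ubiquitous sheddases to the surface were not called. Of the TspanC8 tetraspanins, which bring ADAM10 out of the endoplasmic reticulum, 5 of 6 were tested, with 4 negative and 1 positive log2 fold change. The most abundant was Tspan14, at 141 ± 23.0 CPM in TICs and 180 ± 67.1 CPM in the other tumor cells (SD, n = 3; log2 fold change −0.36, SE 0.34). Of the 3 iRhom partners of ADAM17, Rhbdf1 was the most abundant, at 21.5 ± 8.18 against 26.0 ± 2.37 CPM (log2 fold change −0.27, SE 0.67). Frmd8, which stabilizes the complex of iRhom and ADAM17, was the partner with no overlap, with 259, 68 and 118 counts in TICs and 5, 36 and 37 counts in the other tumor cells (log2 fold change 2.36, SE 1.16, adjusted p = 0.69 by exactTest of edgeR).

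The convertases that remove the prodomain of ADAM proteins lay on both sides of 0. Furin had 886, 1634 and 1240 counts in the other tumor cells and 935, 886 and 808 counts in TICs, or 164 ± 30.3 against 104 ± 2.09 CPM, and in CPM it was lower in every TIC sample (log2 fold change −0.65, SE 0.31, adjusted p = 0.56 by exactTest of edgeR). Pcsk5 was higher in every TIC sample, at 96.1 ± 22.7 against 46.5 ± 17.8 CPM (SD, n = 3; log2 fold change 1.05, SE 0.42, adjusted p = 0.35 by exactTest of edgeR). Neither passed the test. Of the inhibitors, all 4 tested genes had positive log2 fold changes with a median of 0.84, and none was called by exactTest. The most abundant, Timp2, stood at 300 ± 67.8 CPM in TICs and 250 ± 31.2 CPM in the other tumor cells (SD, n = 3; log2 fold change 0.26, SE 0.30).

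The 7 cytoplasmic adaptors, which bind the proline-rich tails of ADAM proteins, had 4 positive and 3 negative log2 fold changes. Sh3pxd2b, an invadopodia scaffold, was the most abundant, at 132 ± 72.7 against 117 ± 26.0 CPM (SD, n = 3; log2 fold change 0.17, SE 0.43). Of the 5 partners of Adam22, Lgi3 and Lgi4 had no count in any sample and Lgi2 alone was tested, with 27, 8 and 1 counts in the other tumor cells and 77, 0 and 82 counts in TICs.

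Igfbp3, a binding protein of insulin-like growth factors that is a known substrate of ADAM12, was the list gene that was called. It had 159, 156 and 169 counts in the other tumor cells and 352, 493 and 1456 counts in TICs. All TIC samples were above all others, and TIC replicate 3 was far above the rest. The mean was 96.1 ± 83.7 CPM in TICs and 21.7 ± 3.49 CPM in the other tumor cells (SD, n = 3), with a log2 fold change of 2.15 (SE 0.55; adjusted p = 0.0273 by exactTest of edgeR). Without TIC replicate 3 the log2 fold change was 1.17 and the call was lost (adjusted p = 0.657), as it was without replicate 1, 2 or 3 of the other tumor cells (0.153, 0.257 and 0.137) and with edgeR's quasi-likelihood test (0.205). Igfbp5, the other ADAM12 substrate of this family, had far higher values, 8297 ± 1585 CPM in TICs against 10376 ± 1448 CPM, and was not called (log2 fold change −0.32, SE 0.28, adjusted p = 0.985 by exactTest of edgeR).

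Notch receptors and their ligands, which ADAM10 cuts at the cell surface, were all tested, and 7 of 8 had positive log2 fold changes with a median of 0.78, but none was called by exactTest. Jag1, a Notch ligand, was the most abundant and had 422, 509 and 467 counts in the other tumor cells and 1124, 1159 and 619 counts in TICs. It was higher in every TIC sample, at 113 ± 28.1 against 62.0 ± 4.54 CPM (SD, n = 3; log2 fold change 0.87, SE 0.36, adjusted p = 0.368 by exactTest of edgeR).

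Of 10 adhesion molecules that ADAM proteins shed, 9 were tested and none was called by exactTest. Cdh1, the gene of E-cadherin, had 5909, 7228 and 4638 counts in the other tumor cells and 4275, 3892 and 3881 counts in TICs. In CPM it was lower in every TIC sample, at 479 ± 30.1 against 782 ± 105 CPM (SD, n = 3; log2 fold change −0.71, SE 0.27, adjusted p = 0.297 by exactTest of edgeR), and DESeq2 called it (adjusted p = 0.0257). Epcam, the most abundant of the list, was also lower in every TIC sample, at 1181 ± 69.6 against 1494 ± 84.3 CPM (log2 fold change −0.34, SE 0.26). Both genes are luminal markers as well and are among those summed above. Cd44, the hyaluronan receptor, stood at 234 ± 35.4 against 353 ± 19.2 CPM and was lower in every TIC sample. Vcam1, which binds leukocyte integrins, stood at 32.5 ± 0.749 against 11.4 ± 9.44 CPM and was higher in every TIC sample.

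Of 15 cytokines, receptors and other substrates, 14 were tested, with 8 positive and 6 negative log2 fold changes, and none was called by exactTest. App, the amyloid precursor protein, led the list in abundance, with 512 ± 87.5 CPM in TICs against 449 ± 55.2 CPM (SD, n = 3; log2 fold change 0.19, SE 0.28). Tnf, which gave ADAM17 its name, was scarce, with 112, 58 and 71 counts in the other tumor cells and 12, 0 and 17 counts in TICs (log2 fold change −3.20, SE 1.57, adjusted p = 0.754 by exactTest of edgeR). Fgfr2, an epithelial growth factor receptor, had 249, 634 and 356 counts in the other tumor cells and 147, 153 and 135 counts in TICs, a log2 fold change of −1.62 (SE 0.54; adjusted p = 0.165 by exactTest of edgeR). It was called only with the filter of more than 1 CPM in all 6 samples (adjusted p = 0.0939), among the settings that used all samples. In CPM both Tnf and Fgfr2 were lower in every TIC sample. Csf1, the macrophage growth factor, and Axl, a receptor tyrosine kinase, were higher in every TIC sample, with log2 fold changes of 0.79 (SE 0.32) and 1.28 (SE 0.56). Of 8 EGF-family ligands, Ereg, Btc and Epgn had no count in any sample and 2 were tested. Hbegf, a ligand shed by ADAM12 and ADAM17, stood at 32.1 ± 8.26 CPM in TICs and 42.7 ± 7.65 CPM in the other tumor cells (SD, n = 3; log2 fold change −0.41, SE 0.52).

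The genes closest in pattern to Adam12 and Adam10 were sought among 8761 others with a mean of at least 10 CPM, by the root mean square difference of mean-centred log2 CPM over the 6 samples. For Adam12 these were Akr1b8 (0.142), Olfm1 (0.204) and Svep1 (0.28), and for Adam10 they were Gcn1l1 (0.202), Tmem44 (0.242) and Nudt19 (0.243). A value of 0 would mean the same pattern in all samples, and with 6 samples of the same libraries such a ranking is a description alone.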

How the data were processed

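The RNA-seq data comprised 3 TIC samples and 3 samples of the other tumor cells. Per the study's methods and the submitters' processing notes, the authors used Trimmomatic 0.32 for trimming, STAR 2.4.0 for alignment to GRCm38, SAMtools 1.1 to drop reads without a unique position and HTSeq for counting. What they deposited are raw counts for 41388 Ensembl genes, without normalization. Reads shared between near-identical genes were thus lost. The annotation release and the strand setting are not given in the sources used here.

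Symbols, exon lengths, overlaps and codons came from GENCODE M21 on GRCm38; 40254 genes had a symbol. Exon lengths are those of all annotated transcripts merged, and CPM per kb shifts where cells use other transcripts. Sequences were translated and aligned with Biopython 1.88.

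The filter kept genes above 1 CPM in 3 or more samples, a value that the methods do not give. Counts were normalized by TMM in edgeR 4.0.16 under R 4.3.3, common and tagwise dispersions were estimated (common dispersion 0.678), and the groups were compared with exactTest, the test the study's methods name, with Benjamini-Hochberg adjustment over all 12192 genes and a threshold of 0.1. Standard errors and 95% intervals came from the negative binomial fit with tagwise dispersions. CPM values are TMM-normalized, except in the filter and in the floor of 3 counts, which used total counts alone. The prior count on the log2 scale was 2, and exact permutation tests used log2(CPM + 2). The floor of 3 counts covers counting error only.

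The alternatives were edgeR's quasi-likelihood test, DESeq2 1.42.0, RLE size factors, library size alone, no filter, more than 1 CPM in all 6 samples, each sample left out in turn and, added after seeing the data, Adam9 or Adam12 left out of its class and Dcn left out of the fibroblast markers. The scripts were tested on simulated counts. The members and lists were chosen with earlier results of these data known. Named were all members, list genes past the threshold, the most abundant tested gene of each list, and the 3 genes closest in pattern to Adam12 and to Adam10; further list genes without overlap between groups were named after their values were seen.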

Additional observations from a re-analysis of the deposited data

How the results depend on the processing

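No paired analysis was possible because the labels give no replicate numbers shared between the groups. The number of members called was 1 by exactTest. It was 0 with edgeR's quasi-likelihood test, with library size alone and without a filter, where 2 members (Adam12 and Adam33) had an unadjusted p below 0.05 each time, and 1 with DESeq2, RLE size factors and the filter in all 6 samples. Leaving out 1 sample at a time gave 0 to 1. Over all genes 189 were called, 50 with the quasi-likelihood test, 306 with DESeq2 and 112 without a filter, and 72 (without replicate 3 of the other tumor cells) to 323 (without TIC replicate 1) with a sample left out. Of the regulator and substrate lists 1 gene was called, 0 with the quasi-likelihood test (11 at an unadjusted p below 0.05), 2 with DESeq2, 2 with the filter in all 6 samples and 0 to 2 with a sample left out. The class difference of 1.29 moved to 1.91 without Adam9, gave no value with the filter in all 6 samples, which removes Adam9, and ran from 1.06 to 1.59 with a sample left out. Signs turned in uncalled genes with a sample left out, over ranges of log2 fold change from −0.26 to 1.54 for Adam22 (−0.25 without TIC replicate 2), −0.69 to 0.32 for Adam10, −0.38 to 0.0612 for Adam15, −0.21 to 0.57 for Sh3pxd2b and −0.46 to 0.0311 for Rhbdf1. The causes were not tested. Of the values of single named genes under these alternatives, 331 kept their direction and their side of the threshold, 12 lost and 2 gained a call, and 7 changed sign. The likeness of patterns was computed with TMM factors alone. Low counts limit Adam9 and Adam22 most, with at most 95 and 56 counts in a sample.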

Other observations

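The other ADAM genes were nearly silent in these tumors. Of 26 further genes of the family, 20 had no count in any of the 6 samples, among them testis genes such as Adam2 and Adam3, whose proteins act in fertilization. Adam23, a relative of Adam22 that is likewise without protease activity, was the 1 gene among them that passed the filter. It had 13, 116 and 81 counts in the other tumor cells and 375, 260 and 60 counts in TICs, so that TIC replicate 3 lay within the range of the other group. The mean was 26.5 ± 17.0 CPM in TICs and 8.88 ± 6.10 CPM in the other tumor cells (SD, n = 3), and the log2 fold change was 1.57 (SE 0.93; adjusted p = 0.849 by exactTest of edgeR). Adam8, a protease of leukocytes and of aggressive breast carcinoma cells, had 0, 48 and 8 counts in the other tumor cells and 0 counts in all TIC samples. There a count of 0 allows up to between 0.33 and 0.37 CPM (by total count, without TMM factors) by counting error alone. Adam4, Adam11, Adam28 and Adamdec1 also stayed below the filter, with at most 48 counts in a sample. These 5 genes are named because of their counts.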
